A study of Mus musculus with 6 samples.

Results

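The stretch of mouse chromosome 4 that lies over 1 Mb and up to 5 Mb upstream of the Wnt4 promoter was examined in circularised chromosome conformation capture sequencing (4C-seq) data. 4C-seq fixes chromatin, ligates pieces that lie close together, and reads off the partners of one chosen fragment, the viewpoint. The members were all fragment ends that the tables list from 131832108 to 135832107 (mm9, 1-based), chosen by position alone: 10685 of the 369081 ends listed on the chromosome. Upstream means lower coordinates than the end at 136832108, which was taken as the viewpoint. The labels give no primer position, so all distances rest on that choice. An end with at least 1 read is called captured. There were 3 libraries from BC44 cells and 3 from HC11 cells, which the labels call mammary epithelial. Both were grown in RPMI1640 with serum and insulin, and fixed with 2% formaldehyde for 10 min. Values of a line are given in the order of its replicates 1, 2 and 3. The HC11 medium also held EGF at 10 ng/ml, so line and growth factor cannot be told apart. The labels give no strain, passage or clone, and do not say whether the replicates were separate cultures, so p-values measure the spread between these libraries only. A 4C-seq table holds no expression values, so the cell type was not checked against markers.

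A promoter meets distant sequence on its own chromosome mostly through the random motion of the chromatin fibre, and such meetings become rarer with distance. Megabase-range contacts therefore form a thin background on which compartments, the grouping of active with active and silent with silent chromatin, leave a pattern. WNT4 is a secreted signal that acts downstream of progesterone receptor in the mammary epithelium, and the study's title ties its expression there to looped enhancers and to GRHL and the progesterone receptor PGR. The flank is rich in genes, with 99 start sites of protein-coding genes in GENCODE M1. One of them is Grhl3, a member of the grainyhead-like family of epithelial transcription factors.

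Total reads on chromosome 4 ranged from 825498 to 1401717 in BC44 and from 96690 in HC11 replicate 2 to 1755373 in HC11 replicate 1. After ends within 2 kb of the viewpoint were left out, 93823 to 962655 reads remained, and CPM below means reads per 1000000 of these. In the replicate 1 libraries far more reads lay within 2 kb than in the others (821405 of 1401717 reads lay outside in BC44, 962655 of 1755373 in HC11), so replicate 1 was treated as a possible technical batch. The flank held 64599, 65717 and 75872 reads in BC44 and 49295, 5331 and 43194 in HC11. PCR copies cannot be told from separate ligations here, since no molecular identifiers are described, and every interval covers counting error only.

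Only 1 end of the flank was captured in all 6 libraries, and 3 more in 5 of them. The bases next to these 4 ends are shown because they are the most repeatedly captured sequence of the flank. Each run is the plus strand of mm9, 5′ to 3′, and spans the DpnII site of the end (GATC) and the nearest NlaIII site in the fragment (CATG), both in capitals. The run in Asap3 is limited to the 300 bases next to its DpnII site and does not reach the NlaIII site. The 40 bases next to each DpnII site occur 1 time on chromosome 4, counting both strands.
End 135782749, chr4:135782450-135782749: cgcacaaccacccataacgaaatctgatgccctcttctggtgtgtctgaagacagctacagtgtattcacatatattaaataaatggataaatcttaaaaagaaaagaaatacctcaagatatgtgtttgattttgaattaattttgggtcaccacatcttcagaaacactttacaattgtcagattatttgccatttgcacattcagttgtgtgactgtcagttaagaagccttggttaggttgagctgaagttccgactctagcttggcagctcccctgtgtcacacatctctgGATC
End 135828268, chr4:135828007-135828268: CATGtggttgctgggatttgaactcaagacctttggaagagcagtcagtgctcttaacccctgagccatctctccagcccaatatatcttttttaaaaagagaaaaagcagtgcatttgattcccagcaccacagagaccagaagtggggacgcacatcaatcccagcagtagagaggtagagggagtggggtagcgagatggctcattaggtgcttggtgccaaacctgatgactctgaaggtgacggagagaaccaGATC
End 135646453, chr4:135646453-135646623: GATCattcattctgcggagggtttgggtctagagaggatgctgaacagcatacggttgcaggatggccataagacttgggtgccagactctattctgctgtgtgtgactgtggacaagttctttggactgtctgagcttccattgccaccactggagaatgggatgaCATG
End 135676328, chr4:135676094-135676328: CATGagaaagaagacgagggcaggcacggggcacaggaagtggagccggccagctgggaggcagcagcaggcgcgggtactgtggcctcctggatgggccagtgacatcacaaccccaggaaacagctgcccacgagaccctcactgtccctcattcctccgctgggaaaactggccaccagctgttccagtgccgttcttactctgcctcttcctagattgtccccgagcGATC

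End 135782749 lies 1049 kb upstream of the viewpoint in Asap3, which encodes an Arf GTPase-activating protein, in sequence with no annotated exon. It had 49, 5 and 20 reads in BC44 and 60, 1 and 37 in HC11, so the lines overlapped and the smallest value was a single read. That read, in the shallowest library, was 10.7 CPM, above the 6.27 CPM of BC44 replicate 2. End 135828268 lies 1004 kb upstream in Tcea3, a transcription elongation factor gene, also outside exons. It had 83, 70 and 47 reads in BC44 and 0, 10 and 53 in HC11. As CPM, which allow for depth, these were 101, 87.8 and 51.1 in BC44 and 0, 107 and 86.7 in HC11. End 135646453 lies between genes, 37110 bp from Rpl11, a ribosomal protein gene. It had 1, 52 and 291 reads in BC44 and 77, 0 and 283 in HC11. End 135676328 lies 23084 bp from Id3, which encodes an inhibitor of helix-loop-helix transcription factors. It had 69, 3 and 31 reads in BC44 and 0, 2 and 23 in HC11. At each of these ends the reads and the CPM of at least 1 line differed many-fold between its own libraries. By either measure the lines overlapped at all 4.

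Most captured ends of the flank were seen in a single library. Of its listed ends, 2812 (26.3%) were captured in at least 1 library, and 2185 of these (77.7%) in exactly 1. A further 501 ends were captured in 2 libraries, 108 in 3 and 14 in 4. All 18 ends captured in 4 or more libraries lay 1 to 2 Mb from the viewpoint. The share seen in a single library was 27.7% in the nearer upstream zone at 400 kb to 1 Mb and 96.7% over 5 Mb upstream. It thus rose with distance on the upstream side. In the downstream flank at 1 to 5 Mb it was 82.8%. The percent of listed ends captured per library fell along the upstream side: 25.7% to 37.0% in the nearer zone, 3.50% to 8.62% in the flank and 0.264% to 0.707% over 5 Mb. Whether the single-library share rose beyond what fewer captures would give was not tested. Ends captured in another library as well made up 34.9%, 39.7% and 41.4% of the captured ends in BC44, and 40.4%, 38.0% and 42.5% in HC11.

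**Figure D1:**
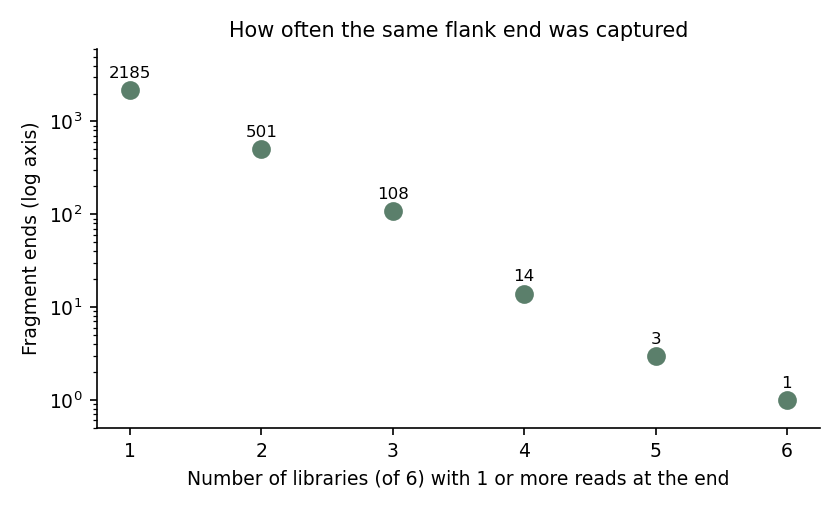
Number of flank fragment ends (log axis) captured in 1, 2, 3, 4, 5 or all 6 libraries. Of 2812 captured ends, 2185 were found in a single library and 1 in all 6.

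The signal in each library was spread over many ends. The number of captured ends was 921, 638 and 575 in BC44 and 463, 374 and 617 in HC11. The median captured end had 30, 28.5 and 50 reads in BC44 and 49, 7 and 29 in HC11, and 3.89% to 15.2% of captured ends had 1 read. The end with most reads took 1.29% to 2.92% of a library's flank reads, and in each library that end was captured in at most 1 other library. In BC44 replicate 1 it lay in Runx3, a Runt-family transcription factor gene, with 831 reads there and 0 in the other 5 libraries. The 10 ends with most reads took 8.66%, 15.5% and 12.3% of flank reads in BC44 and 15.0%, 17.4% and 11.4% in HC11. The lines overlapped in this share (two-sided exact permutation p = 0.5, adjusted p = 0.5), and without BC44 replicate 1 the difference of 2.48 points shrank to 0.738.

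Contact fell along the flank in every library. From 1 to 2 Mb, 16.0%, 10.9% and 10.7% of the 2692 listed ends were captured in BC44 and 8.36%, 7.06% and 12.0% in HC11. From 4 to 5 Mb, 4.72%, 3.26% and 2.62% of the 2669 listed ends were captured in BC44 and 1.99%, 2.02% and 3.11% in HC11. The number of captured ends at 1 to 2 Mb over that at 4 to 5 Mb averaged 3.64 ± 0.411 (SD, n = 3) for BC44, 3.89 ± 0.363 (SD, n = 3) for HC11. Over the 16 windows of 250 kb, the slope of log2 capture rate on log2 distance averaged -1.16 ± 0.0849 (SD, n = 3) for BC44, -1.28 ± 0.0263 (SD, n = 3) for HC11, given as a description without a test. The slope on read density averaged -1.13 ± 0.158 (SD, n = 3) for BC44, -1.38 ± 0.151 (SD, n = 3) for HC11.

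The fall was not even. The 3 windows of 250 kb with the highest mean level were the 3 nearest. The window at 1000 to 1250 kb, with Id3, E2f2, Asap3, Tcea3 and Rpl11, held 12247, 14582 and 15885 CPM in BC44 and 8390, 11213 and 15778 CPM in HC11. The window at 1250 to 1500 kb, with Cnr2 and Fuca1 among its genes, averaged 10783 ± 2398 CPM (SD, n = 3) for BC44, 9415 ± 1670.2 CPM (SD, n = 3) for HC11. The window at 1500 to 1750 kb, with Grhl3, averaged 7415 ± 436 CPM (SD, n = 3) for BC44, 7423 ± 1411 CPM (SD, n = 3) for HC11. The lines overlapped in all 3 windows.

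The 3 windows with the lowest mean CPM over all libraries lay between 3500 and 4500 kb, not at the far end. In BC44 alone the window at 4500 to 4750 kb had the lowest mean, at 2363 CPM. The window at 3750 to 4000 kb, with Wdtc1 and Tmem222 among its genes, held 2424, 1915 and 3426 CPM in BC44 and 1494, 1162 and 1216 CPM in HC11. The windows at 3500 to 3750 kb, with Arid1a, and at 4250 to 4500 kb, with Ahdc1 and Fgr, were the next lowest, at 1994 and 1944 CPM over all libraries. The farthest window, 4750 to 5000 kb, with Phactr4, Sesn2 and Rcc1, ranked 8 of 16. It held 2656, 5768 and 5423 CPM in BC44 and 1980, 2292 and 2715 CPM in HC11, and by captured ends 33, 24 and 22 against 18, 14 and 22. At the limits of the flank, the 100 kb just inside the near limit held 5223 CPM over all libraries and the 100 kb just outside it 10364 CPM. The 100 kb just inside the far limit held 1187 CPM and the 100 kb beyond it 786 CPM.

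**Figure D2:**
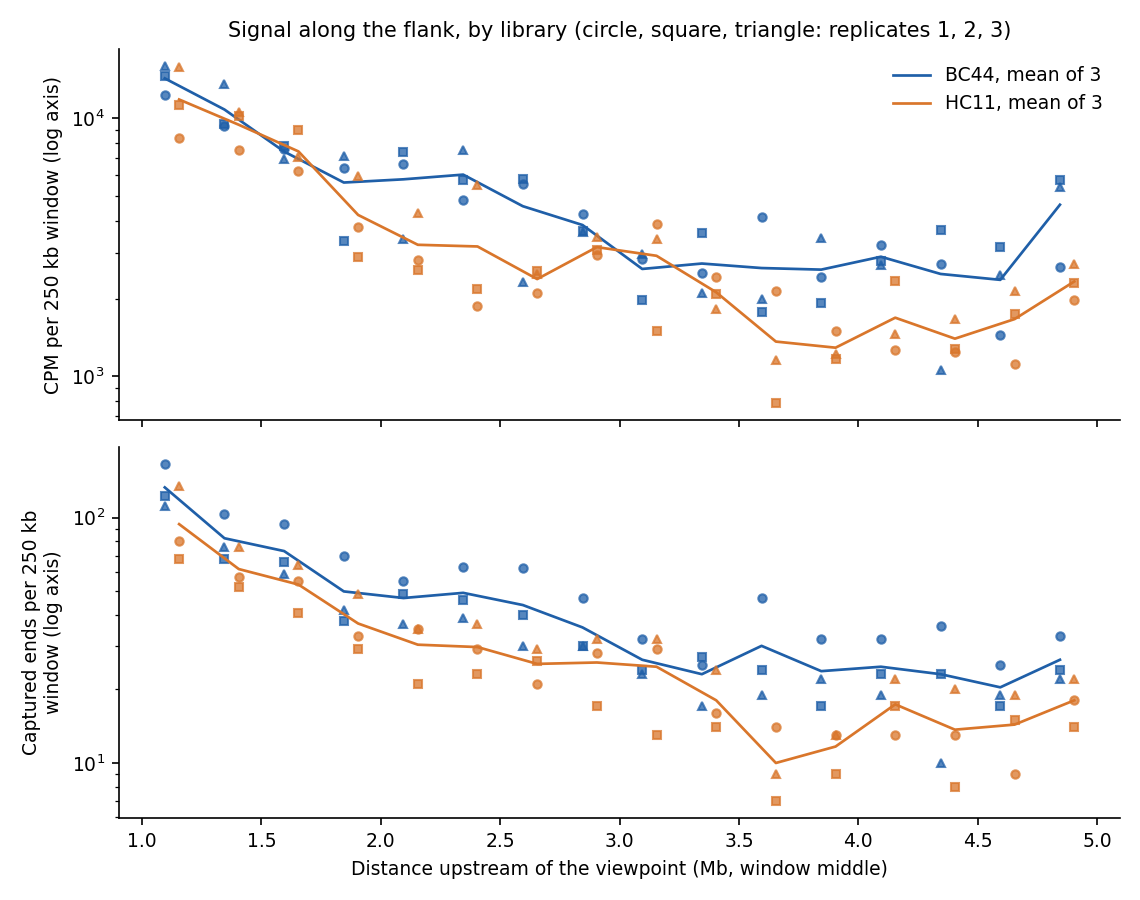
Signal in 16 windows of 250 kb against distance upstream of the viewpoint (Mb), as CPM (top, log axis) and captured ends (bottom, log axis). Points are libraries and lines are means of 3. Both lines of cells fall with distance, with a rise in the farthest window. The mean CPM of HC11 and of all libraries is lowest between 3.5 and 4.5 Mb. The BC44 mean is lowest at 4500 to 4750 kb in both panels.

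The flank as a whole took a smaller share of HC11 than of BC44 libraries. It held 7.86%, 8.25% and 8.25% of the reads over 2 kb away in BC44 and 5.12%, 5.68% and 7.07% in HC11. The lowest BC44 value exceeded the highest HC11 value, with an SD of 0.223 points in BC44 and 1.003 points in HC11 (n = 3 each). The difference of -2.16 percentage points gave the smallest p that 3 libraries against 3 allow (two-sided exact permutation p = 0.1, adjusted p = 0.2 over 6 measures). It was -2.74 points in the replicate 1 pair and -1.87 points in replicates 2 and 3. The size of this share was known from an earlier analysis, so it is no independent support.

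Captured ends, which count each end at most once whatever its reads, gave the same direction. Flank ends made up 14.14%, 14.02% and 14.15% of the captured ends over 2 kb away in BC44 and 10.2%, 10.7% and 13.8% in HC11. The difference was -2.55 points without overlap (two-sided exact permutation p = 0.1, adjusted p = 0.2), -3.98 points in the replicate 1 pair and -1.83 points in replicates 2 and 3. HC11 replicate 3, at 13.8%, lay close below BC44. With each library thinned to 93823 reads the lines overlapped, with a difference of -2.33 points (two-sided exact permutation p = 0.2). Of all captured ends over 1 Mb away, 24.4% in BC44 and 22.998% in HC11 lay in the flank, a difference of -1.40 points with overlap (two-sided exact permutation p = 0.7).

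The share of listed flank ends that was captured was 8.62%, 5.97% and 5.38% in BC44 and 4.33%, 3.50% and 5.77% in HC11. The 95% Wilson interval was 8.10% to 9.17% in BC44 replicate 1, the highest, and 3.17% to 3.87% in HC11 replicate 2, the lowest and shallowest. The lines overlapped, and the difference of -2.12 points (two-sided exact permutation p = 0.2, adjusted p = 0.24) was -1.14 points without BC44 replicate 1, and -4.29 points in the replicate 1 pair. Thinned to equal depth it was -1.30 points over all libraries, -3.21 points in the replicate 1 pair and -0.343 points in replicates 2 and 3, where the lines overlapped.

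**Figure D3:**
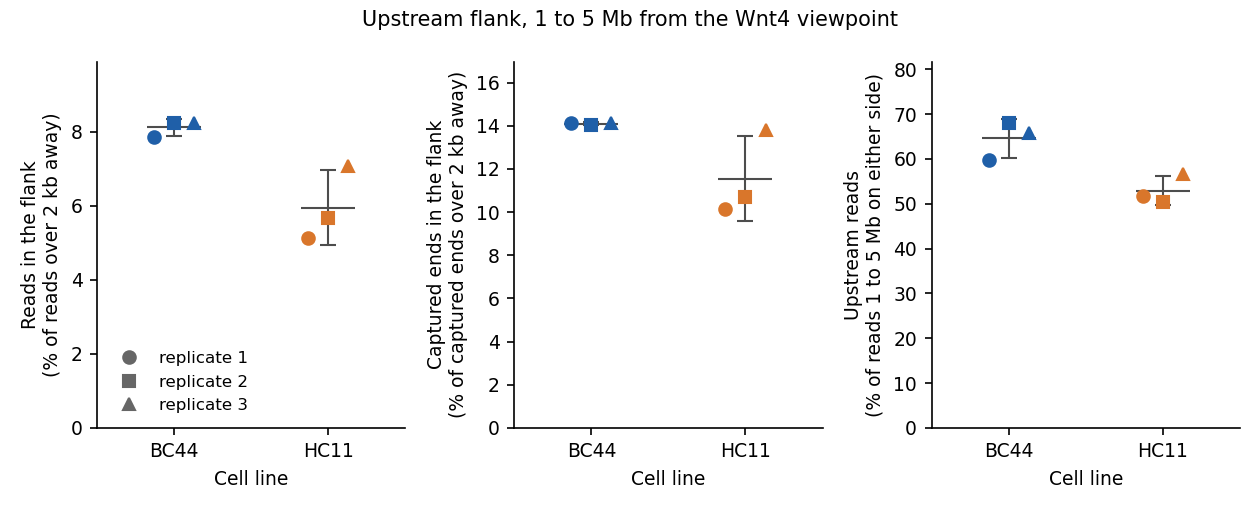
Flank reads as percent of reads over 2 kb away (left), flank ends as percent of captured ends (middle) and upstream reads as percent of reads 1 to 5 Mb on either side (right). Symbols are libraries by replicate number, and bars are mean ± SD of 3; in each panel the 3 BC44 libraries lie above the 3 HC11 libraries.

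By step of 1 Mb, the mean was lower in HC11 in each. From 1 to 2 Mb the lines overlapped, with a mean of 3.81% ± 0.472 of reads (SD, n = 3) for BC44, 3.28% ± 0.674 (SD, n = 3) for HC11. From 2 to 3 Mb, the stretch with Runx3, Clic4 and Man1c1, BC44 held 2.12%, 2.26% and 1.69% and HC11 0.973%, 1.04% and 1.57%, without overlap. From 3 to 4 Mb the means were 1.05% ± 0.133 (SD, n = 3) for BC44, 0.77% ± 0.222 (SD, n = 3) for HC11, with overlap. From 4 to 5 Mb BC44 held 1.00%, 1.54% and 1.17% and HC11 0.560%, 0.764% and 0.799%, without overlap. By captured ends these last steps went the other way. From 3 to 4 Mb there were 136, 92 and 81 in BC44 and 72, 43 and 78 in HC11, without overlap. From 4 to 5 Mb there were 126, 87 and 70 in BC44 and 53, 54 and 83 in HC11, with overlap. The 1 to 2 Mb step took 45.1%, 42.7% and 52.7% of the flank's reads in BC44 and 50.6%, 58.5% and 55.7% in HC11. The difference in the share of the 1 to 2 Mb step, 8.10 points, had overlapping lines (two-sided exact permutation p = 0.2, adjusted p = 0.24) and was 2.89 points by captured ends.

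Next, the flank was set against its mirror on the Wnt4 gene side, at the same distances and with a like number of listed ends, 10761. This comparison uses only reads 1 to 5 Mb away. Upstream reads made up 59.7%, 68.1% and 65.9% of the reads 1 to 5 Mb on either side in BC44 and 51.8%, 50.4% and 56.6% in HC11. The upstream side held more reads in all 6 libraries. The share was higher in BC44 without overlap (difference HC11 minus BC44 -11.7 points; exact two-sided permutation p of 0.1, adjusted p = 0.2). It was -7.92 points in the replicate 1 pair and -13.5 points in replicates 2 and 3. By captured ends the difference was -5.90 points with overlap (two-sided exact permutation p = 0.2). The downstream flank alone held 5.31%, 3.86% and 4.27% of reads in BC44 and 4.767%, 5.596% and 5.426% in HC11. Nearer the viewpoint, the upstream zone at 400 kb to 1 Mb held 7.597%, 6.781% and 7.175% in BC44 and 10.2%, 9.09% and 10.1% in HC11, the opposite order. The shares of the downstream flank and of the 400 kb to 1 Mb zone are both of all reads over 2 kb away. They have the same total as the flank's own read share, so a rise in any of these zones lowers the others. The upstream share of both flanks has only the reads 1 to 5 Mb away as total.

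Windows were then compared one by one with edgeR's quasi-likelihood test, fitted and adjusted over all windows over 1 Mb from the viewpoint. No flank window of 250 kb passed an adjusted p of 0.05 (0 of 16; over all tested windows 0 of 436, 0%). At an unadjusted p under 0.05 there was 1 of 16, against 2.75% of all windows, and DESeq2 also called 0 of 16, against 0.459% of all. The smallest edgeR adjusted p in the flank was 0.993. In simulated data with the spread of these libraries and changes of 2, 4 or 16 fold, the fit found at most 3 of 200 changed windows. Those windows were drawn over all distances, where the median standard error at 250 kb was 2.12, against 0.44 in the flank. The simulation therefore does not show how many changes would be found in the flank itself. The lack of a call does not show that the lines were alike. Fold changes here are relative to reads over 1 Mb away. The fold change lay below 0 (lower in HC11) in 14 of 16 windows, with a median log2 fold change of -0.55, beside 52.5% of all 436 windows and a median of -0.10. The flank's median was -0.26 without BC44 replicate 2, -0.36 without HC11 replicate 2 and -0.37 without BC44 replicate 3, and 11 of 16 windows lay below 0 without the last. At the same distances downstream 4 of 16 were lower, with a median of 0.42. The standard error in the flank ran from 0.25 in the nearest window to 0.60.

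The lowest unadjusted p belonged to the farthest window, 4750 to 5000 kb, with a log2 fold change of -0.92 (SE 0.45). It was followed by 2250 to 2500 kb, with Rhd, the Rh blood group gene, Tmem57 and Syf2, at -0.81 (SE 0.42), and by 2500 to 2750 kb, with Man1c1 and Sepn1, at -0.77 (SE 0.44). Each had an edgeR adjusted p of 0.993. The value at 2250 to 2500 kb was -0.44 without BC44 replicate 3, -0.54 without HC11 replicate 2 and -1.41 without HC11 replicate 3. That at 2500 to 2750 kb was -0.45 without BC44 replicate 2, and by captured ends that of the farthest window was -0.14. The window at 2250 to 2500 kb held 4830, 5733 and 7547 CPM in BC44 and 1874, 2185 and 5486 CPM in HC11, and the window at 2500 to 2750 kb 5528, 5822 and 2315 CPM and 2094, 2547 and 2496 CPM, so the lines overlapped in both. By CPM 3 of 16 windows had no overlap between the lines, all with BC44 above, where 7.8% of all windows had BC44 above; HC11 lay above in 0 of 16, against 4.59%. The mean CPM was lower in HC11 in 14 of 16, against 55.3%. By captured ends they did not overlap in 5 of 16, all with BC44 above, where 8.94% of all windows did; HC11 lay above in 0 of 16, against 1.15%. The mean number of captured ends was lower in HC11 in 16 of 16 windows, and in 72.5% of all windows. In the downstream windows at the same distances it was also lower in HC11 in 12 of 16. There BC44 lay above without overlap in 3 of 16 by captured ends, so a lower captured count was not particular to the upstream flank.

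Counting captured ends in place of reads in the same edgeR fit called 1 flank window, which was also the only one of all 436 (0.229%). It lay at 3500 to 3750 kb, from 133082108 to 133332107, and held the starts of Arid1a, which encodes a subunit of the BAF chromatin remodeller, Sfn (14-3-3 sigma), Nr0b2 (an orphan nuclear receptor), Pigv, Gpn2 and Nudc. It had 47, 24 and 19 captured ends in BC44 and 14, 7 and 9 in HC11 of 643 listed, without overlap. The log2 fold change was -1.15 (SE 0.29, edgeR adjusted p = 0.0328). By reads the same window had 4121, 1769 and 1984 CPM in BC44 and 2141, 789 and 1159 CPM in HC11, which overlapped, with a log2 fold change of -0.68 (SE 0.60, edgeR adjusted p = 0.993). By captured ends the median of the 16 windows was -0.10, beside -0.13 over all windows.

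**Figure D4:**
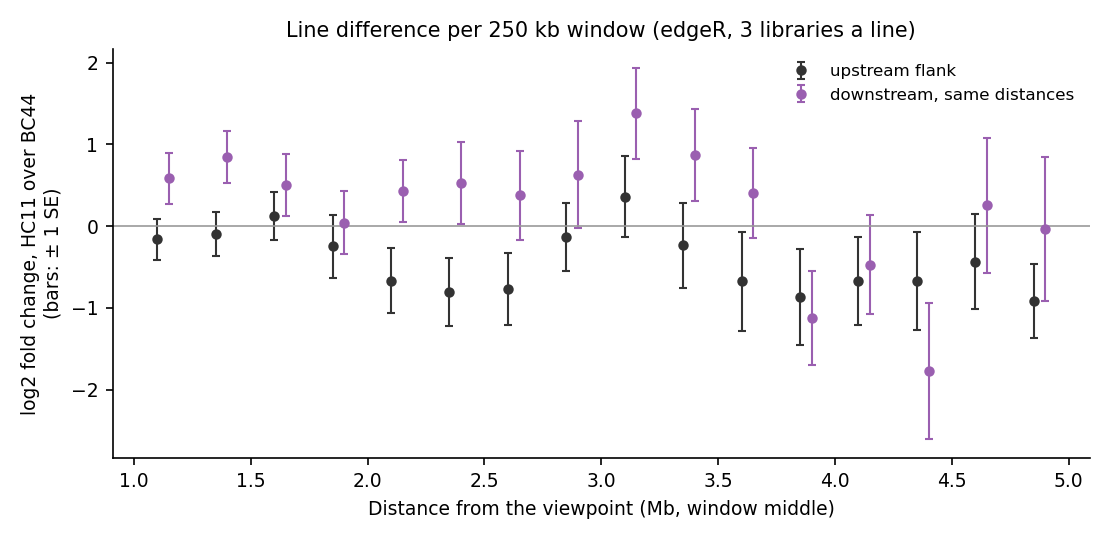
log2 fold change of HC11 over BC44 (edgeR, bars ± 1 SE) in windows of 250 kb against distance from the viewpoint (Mb), for the upstream flank (dark) and the same distances downstream (purple). Upstream 14 of 16 windows lie below 0 and downstream 4 of 16; no window passed the adjusted threshold.

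At 100 kb, 0 of 40 flank windows passed in edgeR (0 of 695 in all, 0%), with 3 of 40 at an unadjusted p under 0.05, against 4.32% of all windows. DESeq2 called 0 of 40, against 2.88% of all. The fold change was below 0 in 33 of 40, against 54.2% of all. The lowest unadjusted p belonged to 2200 to 2300 kb, which holds no start of a coding gene and lies between Syf2 and Runx3. It had 1745, 3659 and 2561 CPM in BC44 and 512, 533 and 1383 CPM in HC11, and 1556 reads of BC44 replicate 3 were at the single end 134574476. The log2 fold change was -1.72 (SE 0.70, edgeR adjusted p = 0.867). The next were 1300 to 1400 kb, with Cnr2, a cannabinoid receptor gene, Fuca1 and Lypla2, at -0.95 (SE 0.42, edgeR adjusted p = 0.877), and 2500 to 2600 kb, with Man1c1, at -1.41 (SE 0.63, edgeR adjusted p = 0.919). By CPM the lines did not overlap in these 3 windows, which were picked by their p in the same data. By captured ends they met at 1300 to 1400 kb, with 43, 27 and 37 in BC44 and 21, 17 and 27 in HC11. Without BC44 replicate 3 the value at 1300 to 1400 kb was -0.41. By CPM they did not overlap in 9 of 40 windows, all with BC44 above, where 9.35% of all windows had BC44 above; by captured ends in 10 of 40, where 7.63% did. HC11 lay above in 0 of 40 by either, against 2.45% by CPM and 1.15% by captured ends. The mean number of captured ends was lower in HC11 in 37 of 40 windows, against 68.3% of all and 31 of 40 at the same distances downstream.

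A list of 27 genes was then followed through their 100 kb windows. Of these, 23 start in the flank, in 19 windows, and 4 (Kdm1a, Luzp1, Hnrnpr and C1qa) lie nearer to Wnt4. The mean level was lower in HC11 in 16 of the 19 windows, where 57% of all windows were, and no window passed. Among the transcription factor genes, Grhl3 (135097803 to 135129545, minus strand) starts 1703 kb from the viewpoint. Its window held 2323, 1501 and 3878 CPM in BC44 and 1927, 2835 and 3616 CPM in HC11, with a log2 fold change of 0.09 (SE 0.52, edgeR adjusted p = 0.998). Of the 76 listed ends inside the gene, 11, 4 and 7 were captured in BC44 and 8, 2 and 6 in HC11. The lines overlapped around Grhl3 by each count.

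Id3 and E2f2, a cell-cycle transcription factor gene, start in the same window at 1100 to 1200 kb. It averaged 6192 ± 1497 CPM (SD, n = 3) for BC44, 4685 ± 739.7 CPM (SD, n = 3) for HC11. Inside E2f2, 22, 17 and 14 of the 61 listed ends were captured in BC44 and 4, 4 and 13 in HC11, so BC44 lay above without overlap, by 1 end between the nearest libraries. By reads inside E2f2 the lines overlapped, with 1401, 2651 and 1281 CPM in BC44 and 338, 256 and 1475 CPM in HC11. The window of Runx3 averaged 2891 ± 1084 CPM (SD, n = 3) for BC44, 1879.7 ± 685 CPM (SD, n = 3) for HC11, with overlap. Nr0b2 lay in a window with 1379, 996 and 1115 CPM in BC44 and 330.3, 330.4 and 0 CPM in HC11. The latter rested on 5, 2 and 0 captured ends of 257 listed.

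Among the signalling genes, Il22ra1 and Il28ra, cytokine receptor genes, share a window that averaged 3703 ± 481 CPM (SD, n = 3) for BC44, 3543 ± 678 CPM (SD, n = 3) for HC11. Their window had 41, 30 and 31 captured ends in BC44 and 23, 18 and 25 in HC11, so captured ends did not overlap while reads did. Cd52, a gene for a small lymphocyte surface protein, lay in 1 of 3 windows with a higher mean in HC11, the others being those of Grhl3 and Ahdc1. It averaged 992 ± 962 CPM (SD, n = 3) for BC44, 1492 ± 404 CPM (SD, n = 3) for HC11, with overlap. The window of Map3k6, a kinase gene, had 1505, 1128 and 1127 CPM in BC44 and 518, 384 and 262 CPM in HC11, without overlap. The window of Rcan3, a calcineurin regulator, averaged 3255 ± 1253 CPM (SD, n = 3) for BC44, 1468 ± 682 CPM (SD, n = 3) for HC11, and that of Fgr, a Src-family kinase gene, averaged 1509 ± 939 CPM (SD, n = 3) for BC44, 689 ± 131 CPM (SD, n = 3) for HC11, both with overlap.

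Genes of the cytoskeleton and of transport come next. By CPM BC44 lay above without overlap around Wasf2, an actin regulator, with 1234, 1664 and 1566 against 203, 799 and 758 CPM. By captured ends the lines met there, with 9, 12 and 9 in BC44 and 3, 7 and 9 in HC11. Around Clic4, an intracellular chloride channel gene, BC44 lay above without overlap by CPM, with 1598, 3098 and 1383 against 461, 1183 and 1085 CPM. Man1c1, a mannosidase gene, had a window with 2554, 4216 and 1994 CPM in BC44 and 1115, 1289.7 and 723 CPM in HC11. The window of Stmn1, which encodes a microtubule-destabilising protein, averaged 1424 ± 487 CPM (SD, n = 3) for BC44, 906 ± 553 CPM (SD, n = 3) for HC11, with overlap. In all, the lines did not overlap in 6 of the 19 windows by CPM and in 7 by captured ends, with BC44 above each time. Over all 100 kb windows BC44 lay above in 9.35% by CPM and 7.63% by captured ends, and over the flank in 9 and 10 of 40, so the gene windows are read only as part of the flank.

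Ends were captured inside all of the 23 genes but Sfn, which has only 3 listed ends. Arid1a, with 192 listed ends over its body, had 17, 10 and 4 captured in BC44 and 4, 4 and 2 in HC11. Lin28a, an RNA-binding regulator of let-7 microRNA, had 3, 2 and 4 of 38 in BC44 and 0, 1 and 2 in HC11. The lines overlapped or met in both genes.

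**Figure D5:**
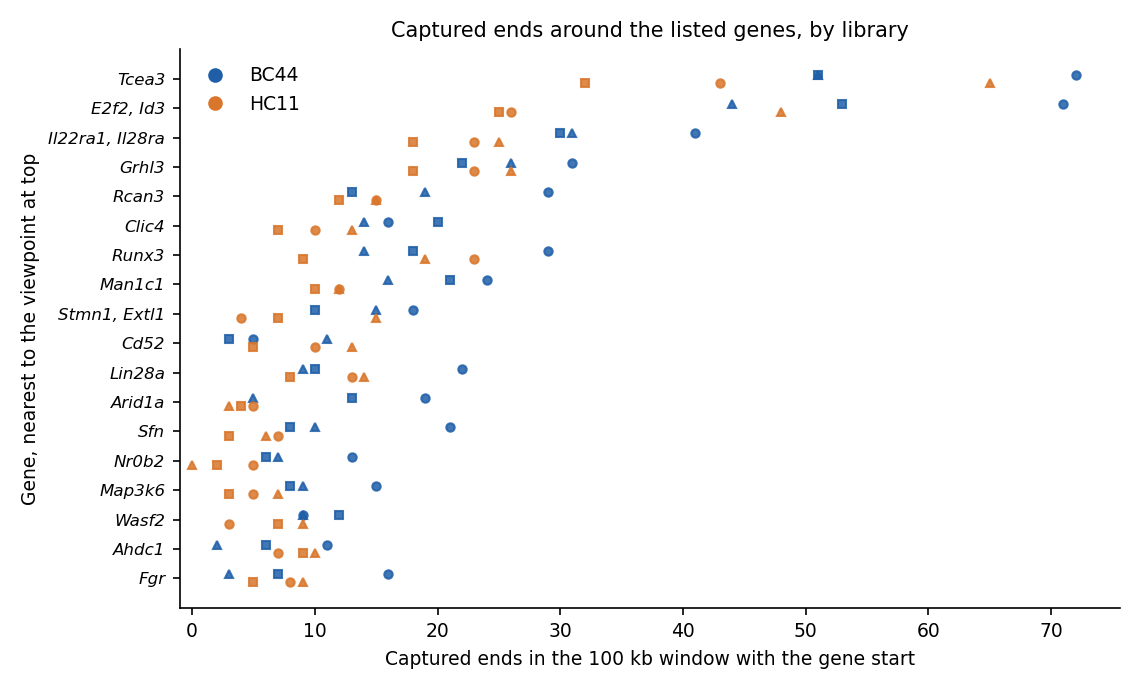
Captured ends (x axis, count) in the 100 kb window that holds the start of listed genes, 18 windows, ordered by distance from the viewpoint; symbols are libraries (circle, square, triangle: replicates 1, 2, 3). The highest count is 72 around Tcea3, the nearest, and 16 around Fgr, the farthest; BC44 lies above without overlap around Clic4, Man1c1, Nr0b2 and Map3k6, among others.

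Few single ends had reads in every library of a line and none in the other line. Of the 10685 listed ends, 13 were captured in every BC44 library, and 4 of these had no reads in HC11. In every HC11 library 2 were captured, and 1 of these had no reads in BC44. Depth was not equal, since HC11 replicate 2 had only 93823 reads over 2 kb away and 3.50% of listed flank ends captured. These ends are given without a test. No such count was made over all listed ends of the chromosome, so they are not read as a difference between the lines. End 135658497, 40915 bp from Id3, had 21, 711 and 24 reads in BC44. End 135135543, 5998 bp upstream of the start of Grhl3, had 93, 1 and 123 reads, and end 134424109, in Rhd, 14, 9 and 2. The fourth, 135777236 in Asap3, had 2, 5 and 19 and is named because the count is small. Ends captured in either line numbered 1886 in BC44 and 1342 in HC11, and the 416 shared ones were 22.1% of the BC44 and 31.0% of the HC11 ends. Only 235 of the BC44 ends and 110 of the HC11 ends were captured in 2 or more libraries of that line. Ends were thus seldom repeated within a line either.

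Capture also differed with the fragment. All 10685 listed ends had an NlaIII site in their DpnII fragment, which the second ligation needs, while 2384 of the 9651 ends not listed had one. The segment between the DpnII end and the first NlaIII site is the piece that the PCR amplifies. Averaged over libraries, 4.78% of ends with a segment under 100 bp were captured, 6.21% from 100 to under 200 bp, 7.28% from 200 to under 400 bp and 2.45% at 400 bp or more, and the longest class was lowest in all 6 libraries. DpnII fragments had a median of 443 bp among listed ends, 508 bp among ends captured in 1 library and 729 bp among ends captured in 3 or more.

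Gene context was compared within steps of 1 Mb to hold distance alike. From 1 to 2 Mb, 10.9% of ends inside coding genes and 10.8% of ends outside were captured on average, with genes higher in 3 of 6 libraries. From 2 to 3 Mb the values were 5.17% and 5.40%, with genes higher in 3 of 6. They were 3.51% and 2.83% from 3 to 4 Mb, with genes higher in 6 of 6, and 2.85% and 3.12% from 4 to 5 Mb, with genes higher in 3 of 6. Ends within 5 kb of a coding start were captured at 10.995% against 10.8% for the rest from 1 to 2 Mb, higher in 3 of 6 libraries. In the later steps, in order of distance, they were higher in 4, 3 and 3 of 6 libraries. The fragments' GC content averaged 48.4% among listed ends and 49.1% among ends captured in 3 or more libraries. These are descriptions over ends that share libraries, and were not tested.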

How the data were processed

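The deposited files hold whole-number read counts per DpnII fragment end of chromosome 4, which the authors made on mm9 with the deWitLab 4C_mapping workflow, run with defaults per the series' design text, from the first read of each pair, per the labels' protocols. The pipeline's version is not given in the sources used here. Position is the other deposited column. Positions were matched to GATC sites of the NCBIM37 (mm9) sequence, and genes come from GENCODE M1 on that build.

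Libraries were grouped by the line and number in their titles. Single values were compared with two-sided exact permutation tests over 20 relabellings (smallest p 0.1), with Benjamini-Hochberg adjustment over 6 measures. Window counts were tested with edgeR 4.0.16 (quasi-likelihood, TMM, line as the only term) in R 4.3.3, on windows with at least 10 reads in at least 3 libraries, and with DESeq2 1.42.0 as an alternative. Standard errors are the absolute log2 fold change over the root of edgeR's F. The fit was tested on simulated data. At the spread of these libraries it found almost none of the windows that had been changed, at either width. With a low spread it found them at 250 kb. The changed windows were drawn over all distances, so detection in the flank alone was not measured. Thinning used expected values of drawing without replacement, and for the 10 top ends 100 draws. Named windows are the 3 highest, 3 lowest and 3 with the lowest p; named ends are those captured in all libraries, or in every library of one line and none of the other, with those in 5 libraries added after their values were seen; named genes lie at these or on a fixed list. The region, the gene list and the tests were chosen with earlier results of these data known. Some items of the list and of these rules are not reported here.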

Additional observations from a re-analysis of the deposited data

How the results depend on the processing

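All 6 single measures kept their direction under every alternative tried, and none could pass an adjusted threshold with 3 libraries a line. The difference in the flank's read share ranged from -2.72 to -1.75 points when single libraries were left out, and that in the upstream share of both flanks from -14.1 to -9.89 points. In the replicate 1 pair alone the difference was -4.29 points for the capture rate, -3.98 for the share of captured ends and 6.36 for the top 10 ends (6.34 thinned), each moved by more than the spread between replicates. With all chromosome 4 reads as total, the flank's share differed by -1.78 points and the lines overlapped; with reads over 1 Mb away as total it differed by -4.43 points, also with overlap. The count of called 250 kb windows was 1 with captured ends (edgeR adjusted p = 0.0328) and 0 under the other alternatives; that of 100 kb windows was 0 throughout. The median log2 fold change of the 250 kb windows ranged from -0.65 to -0.10 over the settings that keep all libraries or replicates 2 and 3, the latter from captured ends, and from -0.60 to -0.26 when single libraries were left out. The 6 windows named for their p kept their direction in all 14 alternatives each, but not their size: leaving out single libraries gave -1.31 to -0.64 at 4750 to 5000 kb, -1.41 to -0.44 at 2250 to 2500 kb, -0.99 to -0.45 at 2500 to 2750 kb, -2.22 to -1.39 at 2200 to 2300 kb, -1.15 to -0.41 at 1300 to 1400 kb and -1.61 to -1.08 at 2500 to 2600 kb. By captured ends the 6 values lay between -0.75 and -0.14. These windows were picked by their p in the same libraries, so their kept direction is no independent support. With the replicate number as a block, 0 windows of either width passed (3 of 16 and 4 of 40 at an unadjusted p under 0.05), and over the pairs the differences were the same -2.16 points for the read share and -11.7 points for the upstream share, each with an exact p of 0.25, the smallest that 3 pairs allow. Same-numbered libraries correlated at 0.154, 0.0275 and 0.0321 in their deviations over 436 windows. There BC44 replicates 1 and 3 correlated best with their own number, but BC44 replicate 2 with HC11 replicate 3, at 0.0852. Over 695 windows of 100 kb only BC44 replicate 1 correlated best with its own number, at 0.160. The numbers were therefore not taken as pairs in the main tests. Thinned values within replicates, the flank's share of reads over 1 Mb away within replicates, and the share of captured ends over 1 Mb away were chosen after seeing the data. The 250 kb windows rested on 7 to 165 captured ends per library, which limits what can be detected.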
